A study of Mus musculus with 30 samples.

Results

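Inositol metabolism holds several of the best known biochemical targets of lithium, and the transcripts of 10 such genes were examined in mouse prefrontal cortex. The genes are the phosphatases Impa1, Impa2, Inpp1 and Bpnt1, the synthase Isyna1, the transporter Slc5a3, the kinases Itpka, Itpkb and Ipmk, and the oxygenase Miox. They were chosen by name, and rows were found by matching Ensembl identifiers to mouse symbols. Of the 10 genes, 9 were matched to one of the 18240 rows of the deposited table, and all 9 passed the filter on low values (a mean normalized count of at least 10). Miox, which opens the oxidative breakdown of inositol in the kidney, was not analysed here.

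C57BL/6J prefrontal cortex, taken on postnatal day 40, was sequenced as bulk RNA after library preparation with a stranded mRNA kit. The mice carried 1 mutant copy of Adnp (heterozygous, HT) or none (wild type, WT). Adnp encodes a homeodomain chromatin protein. WT vehicle had 4 female and 4 male libraries, HT vehicle 4 and 3, HT fluoxetine 4 and 4, and HT lithium 3 and 4. Every drug library was HT, so lithium in WT mice was not analysed here, and a drug effect cannot be separated from the heterozygous background. Neither the design of the Adnp allele nor the dose, route or duration of a drug is stated in the labels. Replicates carry numbers only, with no word on whether 1 mouse gave 1 library, so p-values reflect the variation among libraries, which may be technical. Lithium is a mood stabilizer and fluoxetine a serotonin reuptake inhibitor. The main question was whether the inositol genes differed between lithium and vehicle in HT mice.

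Inositol is taken up into cells by sodium-coupled transporters such as Slc5a3, or made from glucose 6-phosphate by Isyna1 followed by an inositol monophosphatase. It is built into phosphoinositide lipids, from which phospholipase C releases the calcium-mobilizing messenger IP3. IP3 is either phosphorylated further by kinases such as Itpka, Itpkb and Ipmk or stripped of its phosphates in steps. Inpp1 acts on inositol bisphosphate, and the monophosphatases Impa1 and Impa2 return free inositol in the last step. Lithium directly inhibits the monophosphatases, Inpp1 and Bpnt1 as enzymes, an action that transcript counts do not measure.

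Libraries held 23771758 to 34307061 reads, and all values below are normalized counts (reads divided by 1 size factor per library). In the HT vehicle libraries the count under the symbol Adnp was higher than in WT (log2 fold change 0.26, limma adjusted p = 0.00996). Gm20716, an annotated gene that shares exons with Adnp, was lower (log2 fold change -0.78, limma adjusted p = 1.16e-06), and the count under Adnp alone does not check the labels. The tissue label was checked against markers. Slc17a7, a vesicular glutamate transporter of cortical excitatory neurons, was at 33543 to 55735, and the cortical transcription factor Tbr1 at 2229 to 5338 in all libraries. Markers of neighbouring regions varied widely between libraries of the same group: Drd2, a dopamine receptor of striatal neurons, ranged from 15 to 1200, and Eomes, which marks olfactory bulb projection neurons, from 3 to 976.

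Bases upstream of the annotated starts of the 2 genes that supply inositol to the cell are shown because their regulation is the best described of the group: Slc5a3 is a classical target of the osmotic factor Nfat5. Sequences are from RefSeq, build GRCm38.p6, 5′ to 3′, cut to the bases before every annotated start at the locus. Capitals mark matches to GGGCGG (the GC box) on either strand, including one pair that overlaps by a base. Slc5a3 is shown as chr16:92058072-92058269, plus strand, and Isyna1 as chr8:70594231-70594372, plus strand. The Slc5a3 stretch ends directly before the start of the overlapping gene Mrps6 (92058270) and does not reach the start of Slc5a3 (92058322).
Slc5a3: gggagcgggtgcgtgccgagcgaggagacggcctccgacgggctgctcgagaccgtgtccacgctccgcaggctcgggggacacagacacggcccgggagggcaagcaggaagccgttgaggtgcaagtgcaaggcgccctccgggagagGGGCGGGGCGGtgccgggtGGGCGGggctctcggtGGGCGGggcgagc
Isyna1: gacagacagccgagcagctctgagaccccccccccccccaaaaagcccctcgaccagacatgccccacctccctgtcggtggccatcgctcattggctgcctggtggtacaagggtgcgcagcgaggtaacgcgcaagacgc
The Slc5a3 stretch holds 4 such matches and the Isyna1 stretch 0. Over the 250 bases before each RefSeq start, 8 of the 10 genes had an entry. GGGCGG was found in 4 of the 8 (Slc5a3, Itpka, Inpp1 and Ipmk) and in 32.7% of all 32817 mouse entries. TGGAAA, the core of the element that Nfat5 binds, was found in 1 of the 8 (Itpkb) and in 18.6% of all entries. TGACG, the core of a cyclic AMP response element, was found in 2 of the 8 (Inpp1 and Bpnt1) and in 17.8% of all entries. Both strands were searched for each motif. A match describes letters only, and an Nfat5 site of Slc5a3 outside this window would not be seen.

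Per length of exon, the genes ranged widely. Itpka had by far the highest level, with a mean over all 30 libraries of 2330 normalized counts per kb of exon. It encodes an IP3 3-kinase that sits on actin in dendritic spines of forebrain neurons. Bpnt1 followed at 622 per kb, then Isyna1 at 350.1 and Impa1 at 315 per kb. The means of Isyna1 and Impa1 differed by less than 1 SD of Isyna1 between libraries. The coefficient of variation (CV, the SD as a percentage of the mean) of Isyna1 over the 30 libraries was 12.2%. That is a spread between libraries and not the error of a mean. Inpp1 at 136 and Ipmk at 135 per kb could not be ordered. Itpkb was at 76.9, Slc5a3 at 60.7 and Impa2 at 28.8 per kb, so that Impa2 was the lowest of the 9 and Impa1 the main monophosphatase transcript in this tissue. The lengths are those of all annotated exons merged, and a gene whose cortical isoform uses fewer exons would have a higher level than given.

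**Figure D1:**
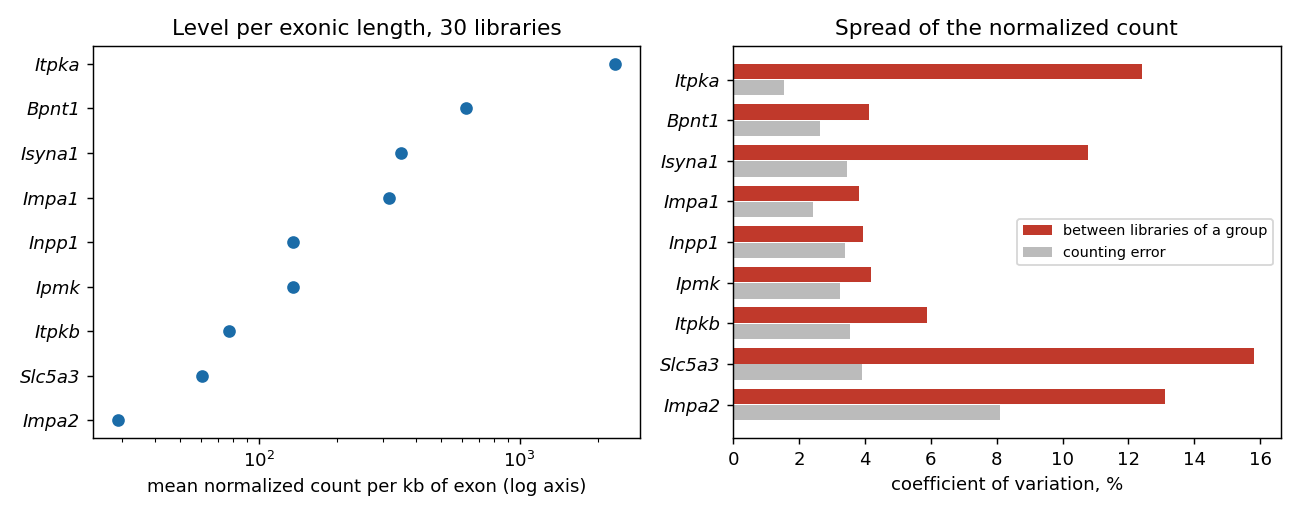
Left, the mean normalized count per kb of merged exons over 30 libraries, on a log axis. Right, the coefficient of variation of each gene between libraries of the same group (red bars) beside the part set by counting reads (grey bars). Slc5a3, Impa2, Itpka and Isyna1 varied by 10.8% to 15.8% and the other 5 genes by 3.84% to 5.88%.

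The genes fell into a steady and a variable set, and that spread fixes how small a difference could be seen. Within groups, the CV was 3.84% for Impa1, 3.94% for Inpp1, 4.13% for Bpnt1, 4.18% for Ipmk and 5.88% for Itpkb. It was 10.8% for Isyna1, 12.4% for Itpka, 13.1% for Impa2 and 15.8% for Slc5a3. Over all 30 libraries instead of within groups, the median CV of the 5081 genes with a mean of 500 to 2000 was 6.60%. On that measure the inositol genes ran from 3.67% (Inpp1) to 14.8% (Slc5a3). Itpka and Impa2 had means outside that window. Counting alone gave 8.09% for Impa2, whose mean was 155 reads after scaling, but only 1.54% for Itpka and 3.91% for Slc5a3. The spread of Itpka and Slc5a3 between libraries was therefore several times larger than counting error.

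Lithium and vehicle libraries of HT mice overlapped for each of the 9 genes. No inositol gene was called by limma (0 of 9 with a Benjamini-Hochberg adjusted p under 0.05), against 0.0892% of the 16824 genes tested. None of the 9 had an unadjusted p under 0.05 in limma, and edgeR and DESeq2 on the recovered reads also called 0, against 0.0892% and 0.107% of all genes. The fitted difference was negative for 8 of the 9, with a median log2 fold change of -0.037, beside 52.2% negative and a median of -0.0039 over all genes tested. The estimates of Inpp1 and Isyna1, among those 8, were -0.0014 and -0.0006. By sex, 4 of the 9 were negative in females (median log2 fold change 0.0069) and 8 of the 9 in males (-0.057). The 95% intervals bound the size of any difference. For the 5 steady genes they reached no lower than 89.3% and no higher than 108% of the vehicle level. For the 4 variable genes they spanned 79.0% to 114%. Within a sex the intervals were wider, such as 83.05% to 99.9% for Itpkb in females and 98.8% to 114% for Ipmk in males.

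**Figure D2:**
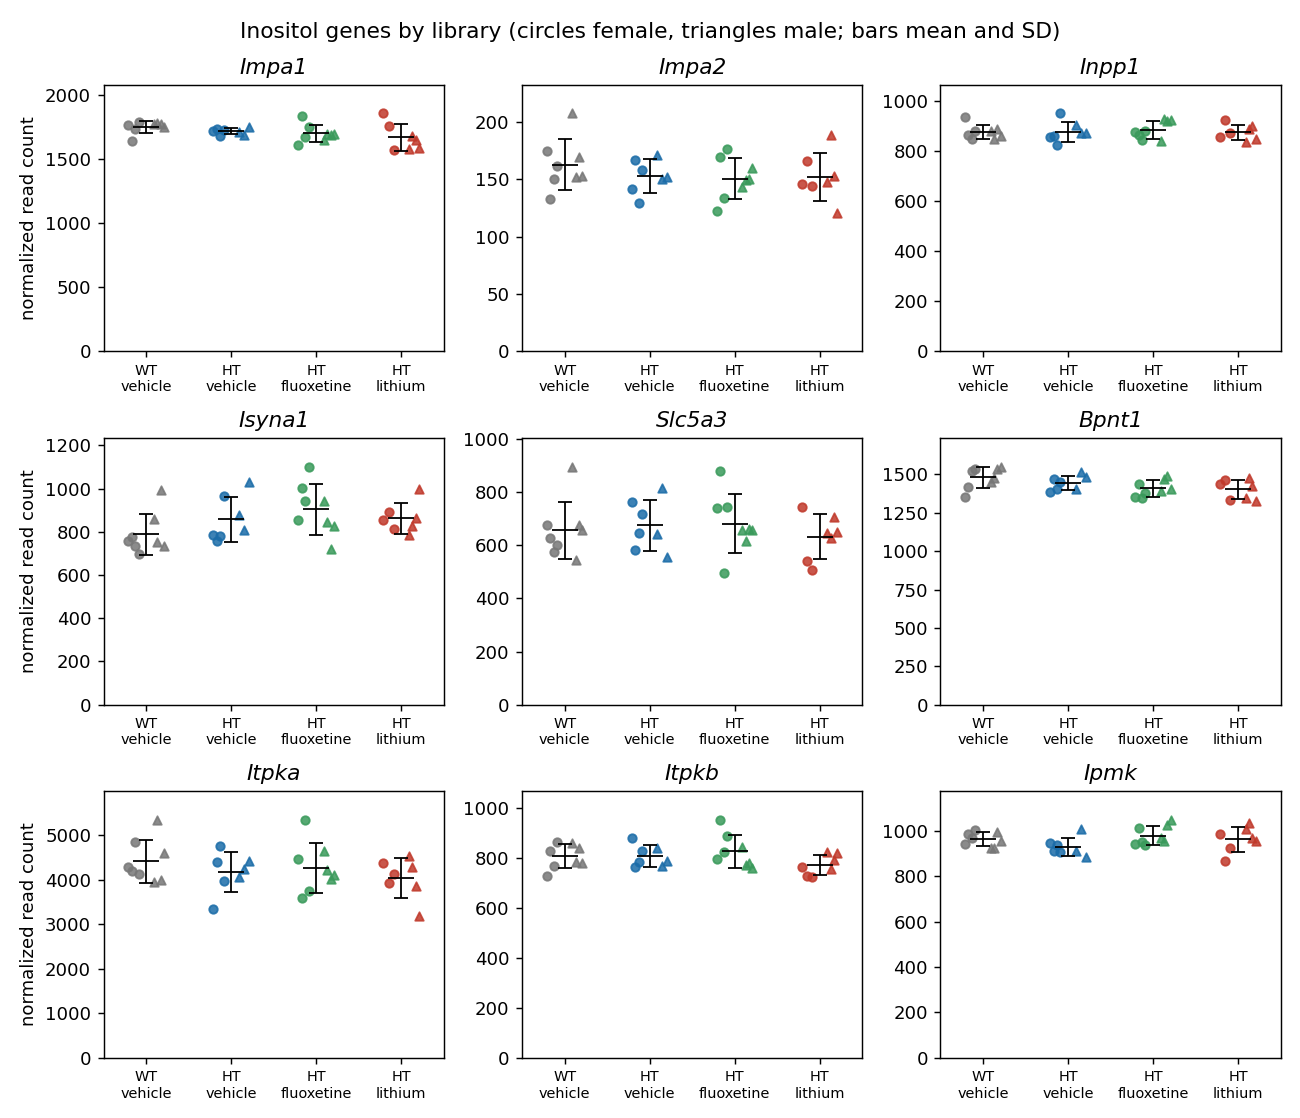
Normalized count of each inositol gene in every library, by arm (circles, female; triangles, male; bars, mean and SD; each vertical axis starts at 0). The 7 HT lithium libraries overlap the 7 HT vehicle libraries in every panel, and Slc5a3 shows the widest scatter for its level.

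Impa1 (chromosome 3, 10311956 to 10331439, minus strand, build GRCm38 as for all positions) encodes the main inositol monophosphatase of brain, the enzyme whose inhibition underlies the inositol depletion model of lithium. In HT lithium its normalized count was 1856, 1760 and 1569 in females and 1582, 1679, 1650 and 1588 in males. In HT vehicle it was 1716, 1736, 1683 and 1729 in females and 1710, 1692 and 1753 in males. The lithium libraries lay on both sides of the vehicle range of 1683 to 1753: 2 were above it and 5 below. Their SD was 106 (n = 7) around a mean of 1669, against an SD of 24.7 (n = 7) around 1717 in vehicle. The fitted level under lithium was 97.5% of vehicle (95% interval 92.9% to 102%, log2 fold change -0.04, SE 0.0333, limma adjusted p = 0.88). An overlapping gene on the same strand, Gm38303, shares 243 exonic bases with Impa1 and was not used here.

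Impa2 (chromosome 18, 67289186 to 67322472, plus strand), the other monophosphatase, had the lowest level of the group. Its normalized count was 146, 166 and 144 in HT lithium females and 148, 189, 153 and 120 in HT lithium males. In HT vehicle it was 142, 167, 129 and 158 in females and 171, 150 and 152 in males. The lowest and the highest of these 14 values were both lithium males. The mean was 152 ± 21.1 (SD, n = 7) under lithium and 153 ± 14.5 (SD, n = 7) under vehicle. Lithium was fitted at 98.8% of vehicle, with an interval of 85.8% to 114% (limma adjusted p = 0.98). The count is less certain than the others because B430212C06Rik, on the opposite strand, covers 23.6% of the Impa2 exons and the handling of strand in counting is not given. B430212C06Rik itself was counted at a mean of 7.62.

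Inpp1 (chromosome 1, 52785427 to 52817688, minus strand) removes the 1-phosphate from inositol bisphosphate and is likewise inhibited by lithium. It was at 855, 922 and 873 in HT lithium females and at 837, 887, 901 and 849 in HT lithium males. HT vehicle libraries had 855, 860, 823 and 949 in females and 903, 870 and 873 in males. The lithium values all fell inside the vehicle range of 823 to 949. The means were 875 ± 30.5 (SD, n = 7) and 876 ± 40.2 (SD, n = 7). In the fit lithium stood at 99.9% of vehicle with an interval of 95.1% to 105%, the estimate closest to vehicle after that of Isyna1 (limma adjusted p = 0.996).

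Bpnt1 (chromosome 1, 185332149 to 185357777, plus strand) is a nucleotidase of sulfate metabolism that belongs to the same lithium-sensitive phosphatase family. Females given lithium had 1439, 1463 and 1335 and males 1348, 1475, 1426 and 1330. Vehicle females had 1383, 1468, 1408 and 1448 and vehicle males 1403, 1515 and 1485. The 3 lowest of the 14 values were lithium libraries and the highest 1 was a vehicle library. The mean was 1402 ± 62.7 (SD, n = 7) under lithium and 1444 ± 48.5 (SD, n = 7) under vehicle. Lithium was fitted at 96.9% of vehicle with an interval of 92.2% to 102% (limma adjusted p = 0.88).

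Impad1, a Golgi relative of Bpnt1 that is also inhibited by lithium, was the remaining gene of the phosphatase list. Its mean was 3119 ± 183 (SD, n = 7) under lithium and 3150 ± 132 (SD, n = 7) under vehicle, and the fitted log2 difference was -0.018 (limma adjusted p = 0.95). The 5 lithium-sensitive phosphatases thus had 0 calls, and their log2 fold changes ran from -0.045 to -0.0014.

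Isyna1 (chromosome 8, 70594373 to 70597290, plus strand) encodes the synthase that makes inositol 3-phosphate from glucose 6-phosphate, the committed step of inositol synthesis. Females given lithium had 854, 892 and 811 and males 786, 829, 863 and 999. Vehicle females had 787, 758, 782 and 967 and vehicle males 876, 810 and 1030. In each arm most libraries were between 758 and 892, and 1 lithium and 2 vehicle libraries were at 967 or more. The means of 862 ± 69.6 (SD, n = 7) and 858 ± 104 (SD, n = 7) were close. The fit gave 99.96% of vehicle, but with an interval of 89.6% to 111% (limma adjusted p = 0.999).

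Slc5a3 (chromosome 16, 92058322 to 92087473, plus strand), whose upstream bases are printed above, is the sodium and inositol cotransporter that loads cells with inositol as an osmolyte. Its normalized count was 746, 541 and 508 in HT lithium females and 648, 626, 709 and 652 in HT lithium males. It was 764, 583, 647 and 717 in HT vehicle females and 642, 817 and 555 in HT vehicle males. The 2 lowest values were lithium females and the 2 highest were vehicle libraries, while the other lithium female, at 746, was the third highest. The mean was 633 ± 85 (SD, n = 7) under lithium and 675 ± 95.6 (SD, n = 7) under vehicle. The fitted level was 93.2% of vehicle, with the widest interval of the 9 genes, 79.0% to 109.9% (log2 fold change -0.10, SE 0.116, limma adjusted p = 0.89). Single libraries moved the Slc5a3 estimate: the log2 fold change was -0.026 without HT vehicle male 2 and -0.19 without HT lithium female 1, and was not called in either fit. Slc5a3 overlaps Mrps6, a mitochondrial ribosomal protein gene on the same strand (159 exonic bases, 1.46% of the Slc5a3 exons and 10.4% of those of Mrps6). Mrps6 was at 390 ± 33.6 (SD, n = 7) under lithium and 399 ± 25.5 (SD, n = 7) under vehicle (limma adjusted p = 0.94).

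Itpka (chromosome 2, 119742337 to 119751263, plus strand) phosphorylates IP3 to IP4 and was the most abundant of the 9. Females given lithium had 4375, 3936 and 4138 and males 4529, 4285, 3862 and 3186. Vehicle females had 3348, 4413, 4767 and 3970 and vehicle males 4058, 4239 and 4418. The lowest library of each arm stood well below the rest: lithium male 4 at 3186 and vehicle female 1 at 3348. Those 2 libraries also had the lowest sums of all normalized counts in the study. The mean was 4044 ± 446 (SD, n = 7) under lithium and 4173 ± 449 (SD, n = 7) under vehicle. The fit gave 97.0% of vehicle, interval 85.1% to 110.5% (limma adjusted p = 0.95).

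Itpkb (chromosome 1, 180330485 to 180424802, plus strand) is the more widely expressed IP3 3-kinase. Its normalized count was 766, 730 and 725 in HT lithium females and 824, 756, 794 and 820 in HT lithium males. Vehicle females had 879, 763, 784 and 830 and vehicle males 842, 768 and 790. The 3 lowest values were lithium libraries, 2 of them female, and the 3 highest were vehicle libraries. The mean was 773.5 ± 40.1 (SD, n = 7) under lithium and 808 ± 43.2 (SD, n = 7) under vehicle. The fitted level was 95.3% of vehicle (interval 89.3% to 102%, log2 fold change -0.07, SE 0.0458, limma adjusted p = 0.88). Its unadjusted p was the smallest of the 9 but above 0.05. Gm5069, a pseudogene on the opposite strand, shares 66 exonic bases with Itpkb.

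Ipmk (chromosome 10, 71347763 to 71433327, plus strand), a multikinase that makes higher inositol phosphates, was the only member with a positive estimate. HT lithium females had 985, 869 and 923 and HT lithium males 1009, 1037, 967 and 955. HT vehicle females had 947, 912, 939 and 908 and HT vehicle males 912, 1007 and 887. The lithium group held both the lowest value, 869, and the highest, 1037. The mean was 964 ± 55.6 (SD, n = 7) under lithium and 930.2 ± 39.4 (SD, n = 7) under vehicle. The fit gave 103% of vehicle with an interval of 97.8% to 108% (limma adjusted p = 0.88).

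**Figure D3:**
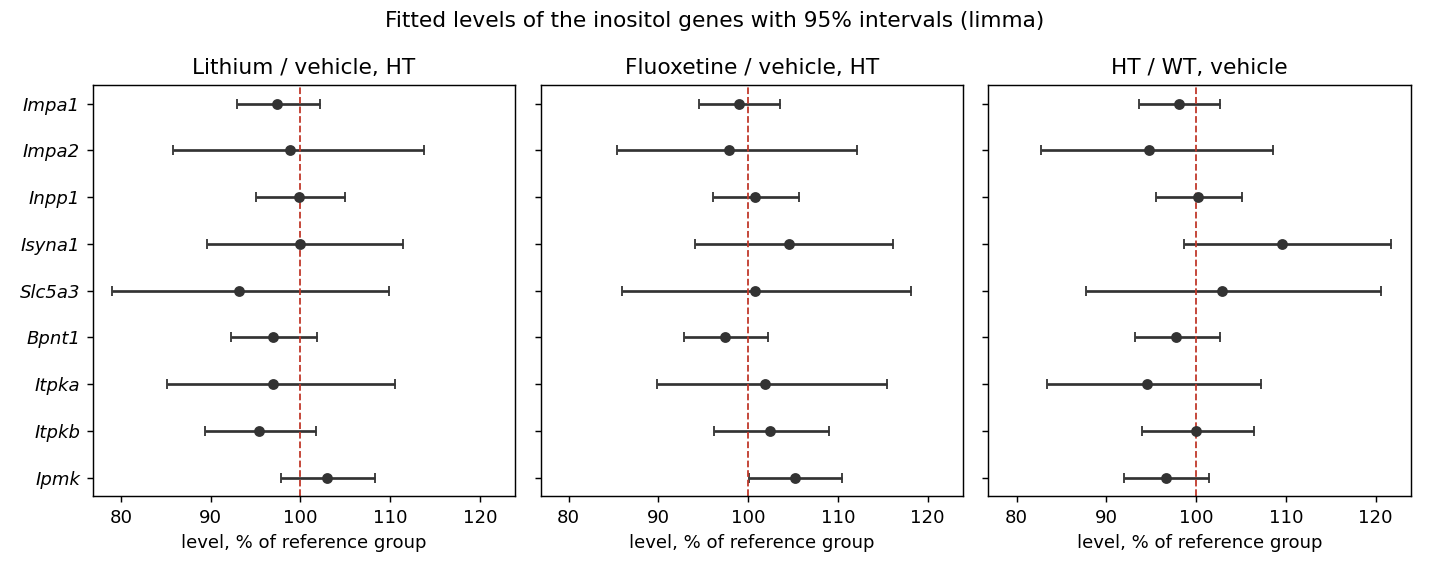
Fitted level of each inositol gene as a percentage of the reference group, with 95% intervals from limma, for lithium over vehicle, fluoxetine over vehicle (both in HT) and HT over WT vehicle. The lithium and fluoxetine panels share the 7 HT vehicle libraries. Of the 27 intervals, 1 leaves out 100%, that of Ipmk under fluoxetine, and its adjusted p was 1.

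Within each sex the lithium comparison again called 0 of the 9 genes in limma, against 0% of all genes in females and 0.0773% in males. In females, 1 of the 9 had an unadjusted p under 0.05. Itpkb was at 725, 730 and 766 in lithium females and at 763, 784, 830 and 879 in vehicle females, so that 1 lithium value exceeded 1 vehicle value (log2 fold change -0.13, limma adjusted p = 1). In males the corresponding log2 fold change was -0.0026 (limma adjusted p = 0.99). The difference between the sexes, 0.13 on the log2 scale, was itself not called (SE 0.0917, limma adjusted p = 0.57). In males 0 of the 9 had an unadjusted p under 0.05, and the smallest was that of Impa1. Its males under lithium had 1582, 1588, 1650 and 1679, all below the vehicle males at 1692, 1710 and 1753 (log2 fold change -0.08, limma adjusted p = 0.41). The share of all genes with groups ordered like this within a sex was not computed, so the order is a description only. In the same males all 10 oligodendrocyte markers had a lower estimate under lithium (median log2 fold change -0.53). A higher one was found for 9 of 10 endothelial markers (0.12). All 10 striatal markers were lower (-1.59), and all 10 olfactory bulb (2.05) and all 10 meningeal fibroblast markers (0.74) were higher. Over the libraries Impa1 had a Pearson r of 0.64 with oligodendrocyte markers and -0.76 with endothelial ones. It was 0.59 with striatal, -0.57 with olfactory bulb and -0.59 with meningeal markers. The part of these lists in the Impa1 order was not tested. In females Impa1 showed no such order, since the lithium values of 1569, 1760 and 1856 straddled the vehicle values (log2 fold change 0.0069, limma adjusted p = 1). The sex difference of the lithium effect was called for 0 of the 9 genes and for 0% of all genes, with 0 of the 9 at an unadjusted p under 0.05.

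Fluoxetine served as the other drug on the same background, and its comparison shares the HT vehicle libraries with that of lithium. No inositol gene was called under fluoxetine in limma (0 of 9, against 0.0357% of all genes), and edgeR and DESeq2 also called 0. Ipmk was the 1 gene of the 9 with an unadjusted p under 0.05. It was at 941, 1012, 950 and 936 in fluoxetine females and at 967, 954, 1025 and 1049 in fluoxetine males, with a mean of 979 ± 43.0 (SD, n = 8) against 930.2 ± 39.4 (SD, n = 7) under vehicle. Both groups overlapped, and the fitted level was 105% of vehicle (interval 100.1% to 110.5%, limma adjusted p = 1). The other intervals were widest for Slc5a3, 86.0% to 118%, and narrowest for Impa1, 94.5% to 104%. Fluoxetine libraries held the highest Isyna1 value of the study, 1102 in female 4, and their mean was 904 ± 118 (SD, n = 8; limma adjusted p = 1).

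Set directly against fluoxetine, lithium called 0 of the 9 genes, as against 0% of all genes in limma. Itpkb had the smallest p. Its fluoxetine values were 796, 953, 825 and 888 in females and 844, 772, 780 and 761 in males. All 4 fluoxetine females were above all 3 lithium females, while the males of both drugs were mixed. Such an order within 1 sex was not counted over all genes. The fitted level under lithium was 93.1% of that under fluoxetine (interval 87.5% to 99.2%, limma adjusted p = 0.69). It was the 1 gene of the 9 with an unadjusted p under 0.05. For the lithium pair, the fluoxetine pair and this direct comparison, 0 of the 9 genes had groups that did not overlap, beside 0.0773%, 0.0535% and 0.0594% of all genes.

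Without drug, HT and WT mice overlapped for each of the 9 inositol genes. None was called in limma (0 of 9, against 0.731% of all genes), none had an unadjusted p under 0.05, and edgeR and DESeq2 also called 0. Isyna1 had the estimate farthest from 0, though its size moved with the fit. Its WT vehicle values were 757, 774, 735 and 695 in females and 861, 755, 995 and 734 in males, a mean of 788 ± 96.2 (SD, n = 8) against 858 ± 104 (SD, n = 7) in HT vehicle. All 7 HT vehicle values were at or above 758 and 5 of the 8 WT values were below that, but a WT male at 995 was among the highest. The fitted level in HT was 109.6% of WT, interval 98.7% to 122% (log2 fold change 0.13, SE 0.0739, limma adjusted p = 0.87). The Isyna1 log2 fold change was 0.067 with astrocyte and excitatory neuron marker scores as covariates, and 0.084 without HT vehicle male 3 to 0.18 without WT vehicle male 3. The phosphatases among the 9 genes were between 94.8% (Impa2) and 100.2% (Inpp1) of WT, and Impad1 was at 101%.

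Lithium-treated HT mice were also set against vehicle-treated WT mice, a comparison that shares WT vehicle libraries with the genotype one and lithium libraries with the drug one. It called the most genes of all comparisons, 1.97% of those tested in limma, but 0 of the 9 inositol genes. Bpnt1 was the 1 gene of the 9 with an unadjusted p under 0.05. Its WT values were 1351, 1418, 1520 and 1538 in females and 1450, 1478, 1538 and 1551 in males, a mean of 1481 ± 70.5 (SD, n = 8) against 1402 ± 62.7 (SD, n = 7) under lithium. The groups overlapped between 1351 and 1475, and the fitted level was 94.8% of WT (interval 90.4% to 99.5%, limma adjusted p = 0.23). Impa1 was at 95.6% (limma adjusted p = 0.29). Its WT values were 1644 to 1790 with a median of 1769, and 5 of the 7 lithium values were at or below 1679 while 1 was above all WT values. Groups that did not overlap were found for 0 of the 9 genes here, beside 0.725% of all genes, and for 0 of the 9 between HT and WT vehicle, beside 0.452%. Averaged over the 4 arms, males and females differed for 0 of the 9 genes in limma, against 0.214% of all genes, and 0 of the 9 had an unadjusted p under 0.05. The widest interval for males over females was that of Slc5a3, 91.96% to 115%.

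The wider pathway was examined through 6 lists that held 68 further genes, all of them tested: phosphatases, synthesis and uptake, enzymes of higher inositol phosphates, phosphoinositide synthesis, phospholipase C with the IP3 receptors, and the 4- and 5-phosphatases. Under lithium 0 of the 68 were called by limma, edgeR or DESeq2, against 0.0892%, 0.0892% and 0.107% of all genes. In limma 4 had an unadjusted p under 0.05, beside 962 of the 16824 genes tested. The median log2 fold change of the 68 was -0.020, with 60.3% negative, beside -0.0039 and 52.2% over all genes tested. The 4 were Slc2a13, Pitpnm2, Plcb2 and Inpp4a, each lower under lithium and each with an adjusted p above 0.85 in limma. Slc2a13, a proton-coupled inositol transporter of neurons, was at 2969 ± 341 (SD, n = 7) under lithium and 3336 ± 357 (SD, n = 7) under vehicle (log2 fold change -0.16, limma adjusted p = 0.87). Its lithium values were 2942, 3567 and 2812 in females and 2877, 3140, 3004 and 2444 in males. The groups overlapped: vehicle female 1, at 2619, was lower than 6 of the 7 lithium libraries.

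The genes with the smallest p of each list had these differences. Nudt11, a diphosphoinositol phosphatase, had a log2 fold change of -0.08, and Ip6k1, an inositol hexakisphosphate kinase, -0.03. Pitpnm2, a phosphatidylinositol transfer protein, was at 8270 ± 567 under lithium and 8802 ± 343 under vehicle (SD, n = 7 each; log2 fold change -0.10). Pip5k1a, which makes the substrate of phospholipase C, had -0.08. Among the phospholipases, Plcb2 was at 116 ± 10.8 and 131 ± 14.5 (SD, n = 7 each; log2 fold change -0.20), and the catalytically inactive relative Plcl2 had -0.12. Of the 4-phosphatases, Inpp4a had -0.11 and Inpp4b 0.23. Slc5a11, a second sodium-coupled inositol transporter, was barely measured, at 11 to 34 under lithium and 7 to 38 under vehicle. The adjusted p of these genes in limma ran from 0.86 to 0.92.

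**Figure D4:**
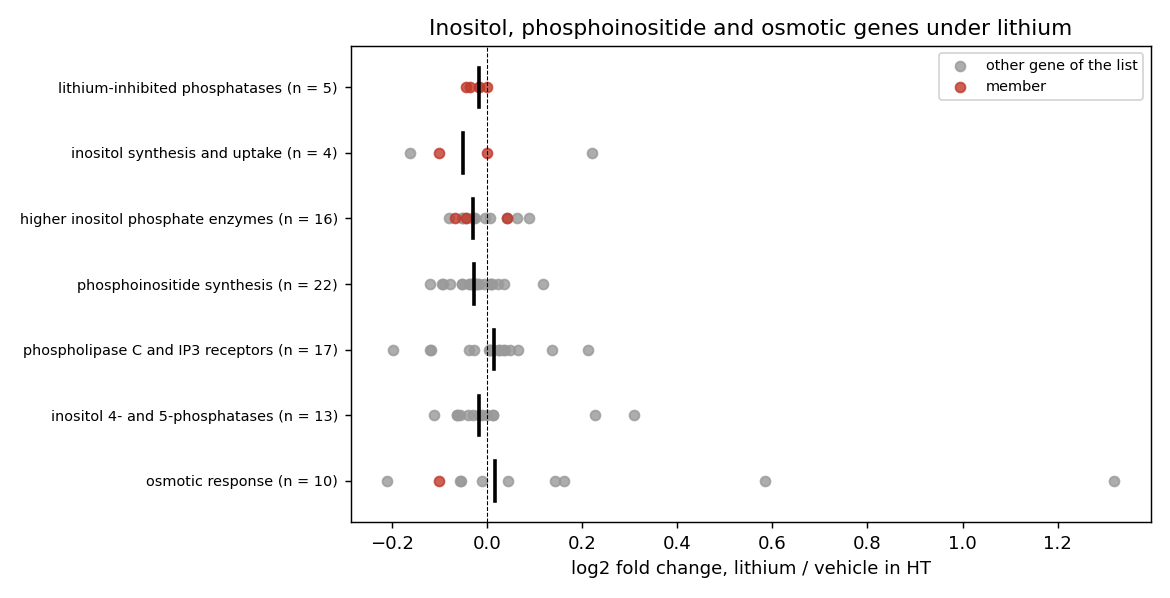
Log2 fold change of lithium over vehicle in HT for every tested gene of 7 lists (red, the inositol genes; grey, other genes; black ticks, list medians; n, genes tested). No gene shown was called. The point beyond 1.2 is Aqp1, whose counts ran from 19 to 440 under lithium.

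Slc5a3 belongs to a set of genes that Nfat5 and osmotic stress are known to regulate. The 10 genes of that list also had 0 calls under lithium in limma, edgeR and DESeq2. In limma 2 of them had an unadjusted p under 0.05, beside 962 of the 16824 genes tested. The 2 were Sgk1, a kinase induced by stress and glucocorticoids, and Slc6a12, the betaine transporter. Sgk1 was at 1524, 1379 and 1196 in lithium females and 1682, 1427, 1463 and 1352 in lithium males, a mean of 1432 ± 151 (SD, n = 7), against 1631 ± 250.3 (SD, n = 7) in vehicle (log2 fold change -0.21, limma adjusted p = 0.83). Slc6a12 pointed the other way, with 45.0 ± 19.4 against 28.4 ± 9.33 (SD, n = 7 each; log2 fold change 0.58, limma adjusted p = 0.86). Nfat5 itself was at 3892 ± 416 and 3892 ± 275 (SD, n = 7 each; limma adjusted p = 0.98). Its lithium females, at 3266, 3713 and 3776, had 2 values below the vehicle females at 3716 to 4308. Its lithium males, at 3709 to 4487, had 2 values above the vehicle males at 3534 to 3997. That sex difference was not called (0.31 on the log2 scale, limma adjusted p = 0.48), and Nfat5 was named for its role and not by the rule for other genes.

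In the genotype comparison 1 of the 68 further genes was called in limma, beside 0.731% of all genes. Plcg2, a phospholipase C that produces IP3 mainly in microglia and other immune cells, rose in HT mice. It was at 100, 112, 109 and 110 in WT vehicle females and 120, 116, 131 and 119 in WT vehicle males. In HT vehicle it was 150, 148, 172 and 148 in females and 175, 154 and 156 in males, so that every HT value exceeded every WT value. The fitted level was 138% of WT (interval 127% to 149%, log2 fold change 0.46, SE 0.0561, limma adjusted p = 6.71e-06). The 10 microglia markers had 0 calls in that comparison and a median log2 fold change of 0.034, with sums of 9914 to 11365 in HT vehicle and 10158 to 11010 in WT vehicle; their part in the result was not tested. The HT libraries under fluoxetine, at 154 to 179, and under lithium, at 148 to 186, were also above every WT library. Lithium against vehicle left it at 102% (interval 94.1% to 111%, limma adjusted p = 0.93).

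Between lithium-treated HT and WT vehicle mice, 3 of the 68 were called in limma, beside 1.97% of all genes. The 3 were Plcg2 (log2 fold change 0.50, limma adjusted p = 1.85e-06), Slc2a13 and Plch2. Slc2a13 fell to 82.8% of the WT level, from 3594 ± 212 (SD, n = 8) to 2969 ± 341 (SD, n = 7; log2 fold change -0.27, limma adjusted p = 0.0351). WT vehicle had 3944, 3365, 3632 and 3587 in females and 3678, 3586, 3708 and 3251 in males, and 1 lithium library, female 2 at 3567, reached into that range. HT vehicle was in between, and neither step alone was called (adjusted p 0.91 for HT against WT vehicle and 0.87 for lithium against vehicle, limma). The Slc2a13 call was lost without WT vehicle female 1, 3 or 4, WT vehicle male 1, 2 or 3, HT lithium female 1 or 3, or HT lithium male 4 (limma adjusted p 0.0563 to 0.134). Its size also moved with the fit. Over the 12 settings besides leaving out 1 library, the Slc2a13 log2 fold change ran from -0.28 to -0.178. For lithium against vehicle in HT it ran from -0.18 to -0.079. Plch2, a neuronal phospholipase C named after its values were seen, was at 4597 ± 413 (SD, n = 7) and 3802 ± 309 (SD, n = 8; log2 fold change 0.26, limma adjusted p = 0.0494). That call disappeared in 12 of 15 fits that left out 1 library (limma adjusted p 0.0554 to 0.177) and held without WT vehicle female 2, WT vehicle male 4 or HT lithium male 2.

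Several inositol genes were correlated with cell type markers over libraries of all groups. Across the 30 libraries Itpka had a Pearson r of 0.84 and a Spearman rho of 0.77 with the mean log2 level of 10 excitatory neuron markers (r = 0.80 without the 2 libraries farthest from the median). Itpka is itself a transcript of excitatory neurons. Impa1 had r = -0.76 with endothelial markers and 0.64 with oligodendrocyte markers. Impa2 had r = 0.70 with oligodendrocyte markers, and Isyna1 r = -0.66 with excitatory neuron markers. Markers of neighbouring regions were correlated as well: with striatal markers r was 0.59 for Impa1, 0.58 for Impa2 and 0.56 for Isyna1. Impa1 also had -0.62 with astrocyte, -0.59 with meningeal fibroblast and -0.57 with olfactory bulb markers. The part of neighbouring tissue in these coefficients was not tested. Itpka also had r = -0.76 with the choroid plexus list, of which 8 of 10 genes were in the table, and Isyna1 had 0.60 with that list. For Slc5a3 the largest coefficient over the 11 marker lists was 0.53, with choroid plexus markers. These coefficients are descriptions: the points share libraries and size factors, the 8 groups are pooled, and 99 pairs were computed. The r of deviations from the group means was 0.87 for Itpka, -0.65 for Impa1, 0.72 for Impa2 and -0.62 for Isyna1. In bulk tissue, fewer cells of a type and less RNA per cell cannot be told apart.

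**Figure D5:**
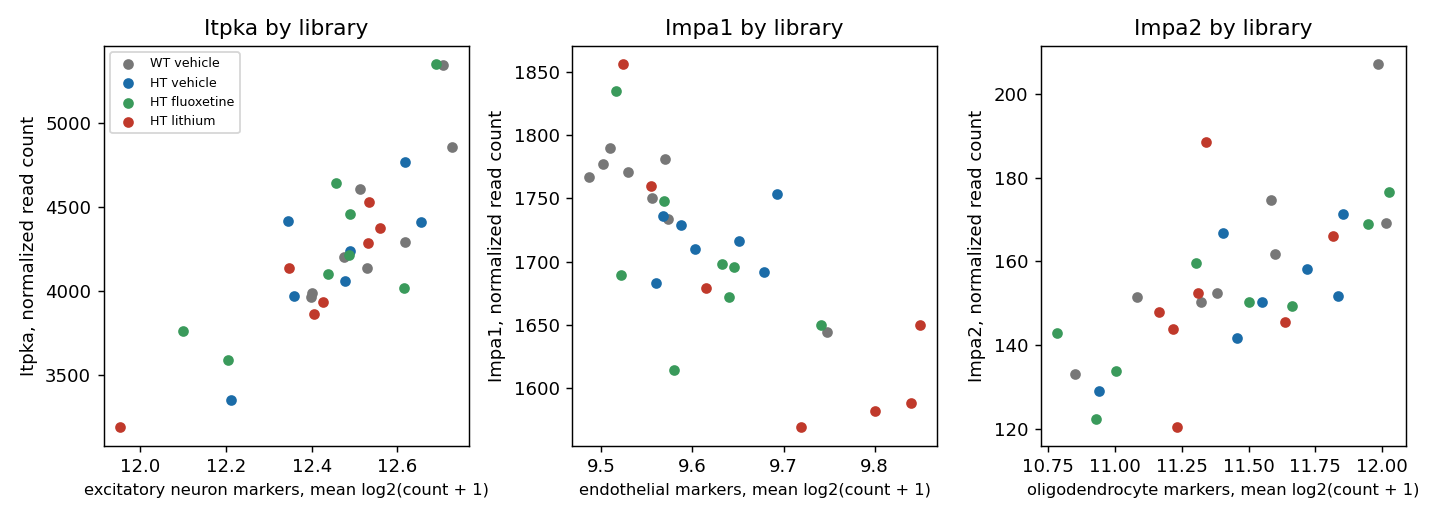
Itpka against excitatory neuron markers, Impa1 against endothelial markers and Impa2 against oligodendrocyte markers (mean log2 of normalized count + 1 over 10 genes), 1 point per library coloured by arm. The vertical axes do not start at 0. Libraries of all 4 arms lie along each trend, with r = 0.84, -0.76 and 0.70.

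Some marker lists had estimates of 1 sign under lithium when averaged over the sexes, although none of their genes was called in limma. All 10 olfactory bulb and neuroblast markers had a higher estimate (median log2 fold change 1.13) and all 10 striatal markers a lower one (-0.70). Their summed normalized counts ran from 3042 to 22733 and from 6567 to 19457 under lithium, and from 2806 to 21021 and from 6927 to 30696 under vehicle. All 10 meningeal fibroblast markers had a higher estimate (median 0.44), 5 of them with an unadjusted p under 0.05 in limma. Their sums were 5540 to 15932 under lithium against 4033 to 7215 under vehicle. The sum of 15932 was that of HT lithium male 4, and the next under lithium was 8984 in male 1. Of the oligodendrocyte markers, 9 of 10 had a lower estimate (median -0.19, sums of 78970 to 121497 against 65790 to 127378). Listed by sex, the estimates of the olfactory bulb, striatal and oligodendrocyte lists were not alike. In males all 10 olfactory bulb markers were higher (median 2.05), all 10 striatal markers lower (-1.59) and all 10 oligodendrocyte markers lower (-0.53). In females 5 of 10 olfactory bulb markers were higher (median -0.0055), and all 10 striatal (0.23) and all 10 oligodendrocyte markers (0.15) were higher. The sex difference of the lithium effect was called for 0 of the 30 genes of these 3 lists in limma. Of the meningeal markers, all 10 were higher in males (median 0.74) and 8 of 10 in females (0.13). The 10 excitatory neuron markers had a median of -0.032 (145320 to 213598 against 169804 to 215282) and the 10 endothelial markers one of 0.061 (8679 to 10910 against 8736 to 9649). None of these lists had a defining marker listed at 0 in every library. With a pair of these scores in the fit, striatal with olfactory bulb or astrocyte with excitatory neuron, some estimates changed sign. Impa2 went from -0.017 to 0.067 and 0.045, Inpp1 from -0.0014 to 0.020 and 0.015, and Isyna1 from -0.0006 to 0.049 and 0.0080 (log2 fold changes, none called in limma). Beyond those 2 pairs their part in the estimates was not tested.

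The inositol genes did not vary as 1 unit. Among the 36 pairs of the 9, the highest coefficients over the 30 libraries were 0.57 for Impa1 with Bpnt1 and 0.55 for Impa1 with Impa2, and the lowest was -0.50 for Slc5a3 with Itpka. Itpka and Itpkb, which carry out the same reaction, had r = -0.37. Among 12791 named genes with a mean of at least 50, Itpka was most like Wsb2 (r = 0.94) and Lmo4 (0.92). Impa1 was most like Rnf103 (0.87) and Tecr (0.84), and Bpnt1 most like Sc5d (0.78) and Pdha1 (0.74). Impa2 was most like Fry and Zfp536 (both 0.78). Itpkb was most like Rasl10b (0.80) and Slc41a1 (0.78), Inpp1 most like Cpd (0.73) and Zfp346 (0.69). Slc5a3 was most like Zdhhc20 (0.72) and Enah (0.71), and Ipmk, at the bottom, most like Nfkbiz (0.65) and Midn (0.63). These are the highest of many coefficients over the same 30 libraries and are given as a description only.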

How the data were processed

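Bulk RNA sequencing of prefrontal cortex gave 30 libraries in 8 groups, placed by their titles. The deposited table holds a signal per gene in which the authors scaled each library's gene counts by its own size factor, as the values themselves show. The submitters' processing notes name DESeq2 1.19.11, Salmon 0.11.2, R 3.6.0 and build GRCm38, with no roles. The annotation, any filter and the use of strand are not stated there. In every column 100% of values were whole multiples of 1 step within 0.01, so reads were recovered, and 2 columns had a step close to 1. Of the identifiers, 18227 had a symbol in GENCODE M21 (GRCm38) and 13 did not.

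Tests used limma 3.58.1 (trend and robust moderation) in R 4.3.3 on log2(normalized count + 1) and kept 16824 genes, those with a mean of 10 or more. A single fit over all 30 libraries had 8 group means and 22 residual degrees of freedom, and sex-averaged comparisons are the mean of both sexes' contrasts. The log2 scale with a pseudocount understates changes of low genes. Adjustment was by Benjamini-Hochberg over all genes tested, with calls under 0.05; percentages of a reference level are 2 to the power of the fitted difference. edgeR 4.0.16 (quasi-likelihood) and DESeq2 1.42.0 on recovered reads were alternatives, with other pseudocounts, filters, TMM scaling, a replicate block, marker covariates and libraries left out. The scripts were tested on simulated data.

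Over 42 within-group pairs chi-square values per degree of freedom ran from 4.57 to 30.1, so each library was counted once. Each library's number of reads limits genes near a mean of 10 most. The inositol genes and lists were chosen with earlier results of these data known. Other genes were named if called for lithium, fluoxetine or genotype, or among the 2 with the smallest lithium p per list; likewise the 2 genes most like each member, which are not reported here for Isyna1. Exonic lengths and coordinates (1-based) are from GENCODE M21 and upstream sequences from RefSeq.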

Additional observations from a re-analysis of the deposited data

Results flagged for a closer look

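In 3 of 54 groups of 4 libraries or more, 1 library stood apart from the rest of its group by Dixon's criterion at the 95% level, and chance flags about 1 in 20 groups. Inpp1 was low in HT fluoxetine male 1, at 839.5, where the other 3 males had 918, 923 and 926. Isyna1 was high in HT vehicle female 4, at 966.7, where the other 3 females had 758, 782 and 787. Slc5a3 was low in HT fluoxetine male 2, at 616.6, where the other 3 males had 658, 659 and 663. These libraries stayed in every comparison above.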

How the results depend on the processing

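No inositol gene was called in any of the 9 comparisons under any of 42 other settings, 30 of which left out 1 library, and none of the 68 further pathway genes was called for lithium against vehicle. Calls of pathway genes did move. Between HT and WT vehicle the count went from 1 to 2 with either pair of marker scores as covariates, which added Plch2 (limma adjusted p 0.0102 and 0.0105). For lithium HT against WT vehicle it was 3, and 1 to 5 when 1 library was left out, the 5 without WT vehicle female 2. Plch2 also lost its call without a low-value filter, with a mean of at least 50, with the replicate block and without both libraries of lowest sum (limma adjusted p 0.0509 to 0.0745). Over all genes, calls between HT and WT vehicle went from 123 to 68 with a mean of at least 50, and to 238 and 261 with the marker pairs. Those under lithium went from 15 to 5 with only the compared groups in the fit, and to 25 with the astrocyte and neuron pair. Those under fluoxetine went from 6 to 12 with DESeq2 and with each marker pair, and to 11 with only the compared groups.

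Fold changes near 0 changed sign, and the cause was not tested. Under lithium, the log2 fold change of Impa2 was 0.0666 and 0.0454 with the striatal and the astrocyte pair of covariates and 0.0251 without both lowest libraries. Inpp1 had 0.0203 and 0.0146 and Isyna1 0.049 and 0.00795 with those pairs, Isyna1 0.000746 with TMM, and Slc5a11 -0.0296 with the astrocyte pair. Under fluoxetine, Itpka was at -0.022 without both lowest libraries. Between HT and WT vehicle, the pairs gave -0.00235 and -0.011 for Inpp1, -0.0225 and -0.00413 for Slc5a3, and -0.0244 and -0.0213 for Itpkb, and the astrocyte pair gave 0.00668 for Itpka. Itpkb was also at -0.000846 with TMM, -0.000124 with DESeq2 and -0.0185 without both lowest libraries. With 1 library left out, the lithium values ran from -0.0713 to 0.0361 for Impa2, -0.017 to 0.0195 for Inpp1, -0.0389 to 0.0477 for Isyna1, -0.092 to 0.00661 for Itpka and -0.0415 to 0.00134 for Impad1. The fluoxetine values ran from -0.0726 to 0.0154 for Impa2, -0.00219 to 0.0322 for Inpp1, -0.0526 to 0.0948 for Slc5a3 and -0.0301 to 0.0659 for Itpka. The genotype values ran from -0.0175 to 0.018 for Inpp1, -0.0342 to 0.107 for Slc5a3 and -0.0209 to 0.0196 for Itpkb.

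The replicate numbers of the titles were not taken as pairing samples. Deviations of same-numbered libraries in lithium and vehicle correlated at -0.0174, 0.072 and 0.0839 in females and 0.0365, -0.204 and -0.0249 in males. Lithium females 2 and 3 by title have library names numbered 3 and 4. Matched by library name, the correlations in females were -0.0174, -0.0712 and -0.404. With the replicate block, which used the title numbers, 0 inositol genes were called, and the count of all genes called went from 15 to 14 under lithium.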

Other observations

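Sgk1, of the osmotic list, was at 1323, 1300, 1329 and 1487 in WT vehicle females and at 2204, 2051, 2262 and 2031 in WT vehicle males, so that the sexes did not overlap. The share of all genes with sexes ordered like this was not computed, so the order is a description only. In HT mice the sexes overlapped in each arm. Vehicle males were above vehicle females on average (1829 ± 237, n = 3, against 1482 ± 138, n = 4, mean ± SD), and so were lithium males (1481 ± 142, n = 4, against 1366 ± 165, n = 3). Under fluoxetine the order was the opposite, with 1653 to 2104 in females and 1206 to 1804 in males. Averaged over the 4 arms the male over female log2 fold change was 0.21 (limma adjusted p = 0.14). Whether the sex difference depends on genotype or drug was not tested, and the gene was singled out after its values were seen.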
